A study of Mus musculus with 15 samples.

Results

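The livers of mice given conjugated estrogens together with bazedoxifene (CE+BZA) were compared with those of mice given estradiol (E2), over every gene of the deposited expression table. The mice were taken by the treatment in their labels, which gave 3 CE+BZA mice and 3 E2 mice, 6 of the 15 mice sequenced. The 3 vehicle mice (Veh) are given for context. All were ovariectomized young adult C57BL/6 females (C57BL/6J in the study's methods) on a high-fat diet, and all were treated for 6 weeks. E2, the main ovarian estrogen, was given from slow-release pellets at a stated dose of 5 μg per kg per day. The study's methods also give a pellet content and release time, which were not reconciled with that dose here. CE, a mixture of estrogens given as a drug, and BZA, a selective estrogen receptor modulator, were given at 2.5 and 3 mg per kg per day in the groups that received them alone, and no separate doses are stated for the combination. CE was delivered by osmotic minipump, and Veh mice received a mixture of DMSO, ethanol and saline. The CE+BZA and E2 groups therefore differed in the estrogen, its dose and its delivery as well as in BZA, and these cannot be told apart.

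Total liver RNA was sequenced as poly-A libraries, so every value is from 1 mouse and from all the cells of the sampled liver. Fewer cells of a type and less RNA per cell cannot be told apart in such samples. The values are log2 levels relative to the median of the gene over the 15 mice, so that 0 is the level of the middle mouse and levels cannot be compared between genes. The table holds 2545 genes, and each of them differed from Veh by more than 2-fold in the mean of at least 1 treatment, so genes that none of the treatments moved are missing from it. In 1045 genes (41.1%), 2 or more mice shared the lowest value of the gene, which was a floor, and differences that reach the floor are too small in size. The table gives no number of reads, so the depth behind a value is unknown.

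The liver carries estrogen receptor alpha, a nuclear receptor that binds DNA at estrogen response elements, and selective modulators such as BZA activate it in some tissues and block it in others. Many liver genes are expressed at different levels in females and males. Most of these differences follow the pattern of growth hormone release from the pituitary, which estrogens also influence, and they are read in hepatocytes by the transcription factor STAT5. Steroid- and drug-metabolizing enzymes of the cytochrome P450, sulfotransferase and UDP-glucuronosyltransferase families are prominent among these genes.

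CE+BZA and E2 differed in 4 genes by limma at a fold change above 2 and a Benjamini-Hochberg adjusted p (FDR) under 0.05. Gm15622 was higher in CE+BZA (0.0393% of the genes), and A1bg, Cyp3a44 and Cyp3a41a were lower (0.118%). Both thresholds are those of the study's own methods. When the p was left unadjusted, at under 0.05 and again above 2-fold, 196 genes were higher (7.7%) and 139 lower (5.46%). In 296 genes (11.6%) all 3 CE+BZA mice lay above all 3 E2 mice, and in 216 (8.49%) they lay below. The median difference over the table was 0.17 on the log2 scale, and 0.03 after quantile normalization, which took the share of higher genes at an unadjusted p under 0.05 from 58.5 to 46.7%. The differences given here are to be read against that shift. The median standard error of a difference was 0.64.

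**Figure D1:**
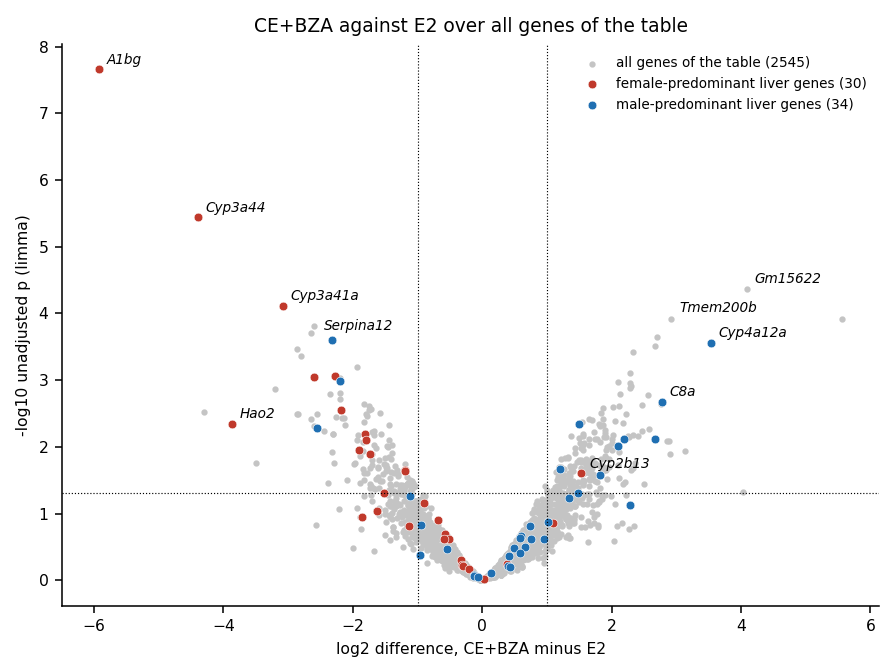
Each point is a gene, with the log2 difference between CE+BZA and E2 on the horizontal axis and −log10 of the unadjusted limma p on the vertical axis. Dotted lines mark a 2-fold difference and the threshold of 0.05. Red points are the 30 female-predominant genes in the table, which lie mostly to the left, and blue points are the 34 male-predominant genes, which lie mostly to the right, with A1bg at −5.92 and Cyp4a12a at 3.53.

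A1bg encodes alpha-1-B glycoprotein, a plasma protein of the immunoglobulin superfamily made by the liver, and is more abundant in female than in male mouse liver. Its log2 values were 4.59, 4.03 and 4.91 in the E2 mice, −2.10, −0.28 and −1.85 in the CE+BZA mice and 0.73, 1.48 and −0.05 in the Veh mice. The 3 groups did not overlap, with the E2 mice above Veh and the CE+BZA mice below. Between CE+BZA and E2 the level fell by 5.92 on the log2 scale (SE 0.60, FDR 5.6e-05 by limma), a fold change of 60.5. Leaving out any of the 6 mice kept the gene past the threshold, with differences between −6.48 and −5.57 over all the settings tried. A fit to the 6 mice alone did not (FDR 0.0635 by limma). On GRCm38, A1bg lies at chr15:60896859-60923012 on the minus strand and overlaps the antisense gene 4930402D18Rik, with which it shares 6.80% of the 101-base words of its transcripts.

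Cyp3a44 and Cyp3a41a encode cytochromes P450 of the 3A subfamily, which oxidize steroids and drugs, and both are known as female-predominant genes of mouse liver. Cyp3a44 was at 3.76, 2.72 and 4.62 in the E2 mice, at −0.36, −1.65 and −0.10 in the CE+BZA mice and at 0.00, −1.86 and −1.75 in the Veh mice. The CE+BZA mice were between the lowest and the highest Veh mouse, and all 3 E2 mice lay above both groups. It fell by 4.40 (SE 0.65, FDR 0.00463 by limma), a fold change of 21.1. Cyp3a41a was at 1.94, 0.64 and 2.04 in E2, at −1.72, −1.92 and −0.96 in CE+BZA and at 0.65, −1.24 and −1.25 in Veh. The E2 and CE+BZA mice did not overlap, while a Veh mouse reached the lowest E2 mouse. It fell by 3.08 (SE 0.59, FDR 0.0487 by limma), a fold change of 8.45.

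Both calls rest on few mice. Cyp3a44 missed the threshold without CE+BZA mouse 2 (FDR 0.0578 by limma) or E2 mouse 5 (FDR 0.0594). Cyp3a41a passed without E2 mouse 3, and missed it without any other single mouse (FDR 0.0779 to 0.198 by limma). The genes lie close together on the minus strand, at chr5:145773983-145805874 and chr5:145694049-145720136 of GRCm38, and their longest transcripts are 90.5% identical. Of the 101-base words of Cyp3a41a, 88.3% also occur in Cyp3a41b, so a read of that length from either gene could be counted for the other and the value of Cyp3a41a is that of the pair. For Cyp3a44, 5.16% of the words were shared with other genes.

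The 3 genes that fell are shown with the 250 bases before their RefSeq start sites (GRCm38.p6), because a pair of them are near copies that moved together. Capitals mark a match to the estrogen response half-site AGGTCA or to the STAT5 motif TTCNNNGAA, on either strand, and the full estrogen response element GGTCANNNTGACC occurs in none of the 3.
A1bg, chr15:60921271-60921520, minus strand: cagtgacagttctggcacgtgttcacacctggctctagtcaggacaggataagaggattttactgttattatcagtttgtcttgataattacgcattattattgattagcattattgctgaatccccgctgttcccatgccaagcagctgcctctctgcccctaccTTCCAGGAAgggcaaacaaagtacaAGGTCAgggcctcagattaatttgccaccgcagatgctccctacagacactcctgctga
Cyp3a44, chr5:145805875-145806124, minus strand: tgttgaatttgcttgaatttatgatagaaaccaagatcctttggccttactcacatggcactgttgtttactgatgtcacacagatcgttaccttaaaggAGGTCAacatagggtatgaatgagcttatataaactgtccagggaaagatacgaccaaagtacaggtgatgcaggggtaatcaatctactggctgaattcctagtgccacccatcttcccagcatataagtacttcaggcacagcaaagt
Cyp3a41a, chr5:145720137-145720386, minus strand: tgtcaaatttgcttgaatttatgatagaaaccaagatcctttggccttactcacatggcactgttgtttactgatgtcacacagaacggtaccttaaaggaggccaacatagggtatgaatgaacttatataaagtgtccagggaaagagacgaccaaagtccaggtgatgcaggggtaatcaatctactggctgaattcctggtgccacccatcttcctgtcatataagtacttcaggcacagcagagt
The A1bg window holds a STAT5 match that begins at base −84 and a half-site that begins at base −59, counted from the start site. The Cyp3a44 window holds a half-site that begins at base −150. The Cyp3a41a window, 94.4% identical to that of Cyp3a44, holds no match to these letters. Among all 32851 RefSeq mouse promoters of this length, 14.0% hold the half-site, 7.02% the STAT5 motif and 0.0639% the full element. A half-site can lie within a full element. Of 1745 promoters of genes in the table, 15.7% hold the half-site and 6.19% the STAT5 motif. Of 79 promoters, from 69 of the 139 genes counted above as lower in CE+BZA, 20.3% hold the half-site and 7.60% the STAT5 motif. For 137 promoters, from 113 of the 196 higher genes, the shares were 15.3 and 5.11%. The full element was found in none of the promoters of the lower and higher genes (0 of 79 and 0 of 137). A match to these letters describes the sequence and is not evidence of binding.

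Gm15622 was the gene that rose. Its log2 values were −0.98, −3.74 and −1.98 in the E2 mice, 1.53, 2.87 and 1.18 in the CE+BZA mice and 1.26, 1.04 and 0.00 in the Veh mice. The E2 mice lay below all CE+BZA and Veh mice, and the CE+BZA and Veh mice overlapped. Mice given CE alone averaged −1.84, against −2.23 in E2, and mice given BZA alone averaged 0.26. The difference between CE+BZA and E2 was 4.09 (SE 0.75, FDR 0.0363 by limma), a fold change of 17.1. The call was kept without E2 mouse 4 and lost without any other single mouse (FDR 0.0730 to 0.198 by limma). Gm15622 is annotated as an antisense gene at chr13:93625382-93628633 on the plus strand of GRCm38, inside Bhmt, which encodes betaine-homocysteine methyltransferase and lies on the minus strand. It shares 0.513% of its 101-base words with the transcripts of Bhmt, which is not itself in the table. Whether the counting used strand is not stated, so reads from the antisense gene and from unspliced Bhmt RNA cannot be told apart.

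**Figure D2:**
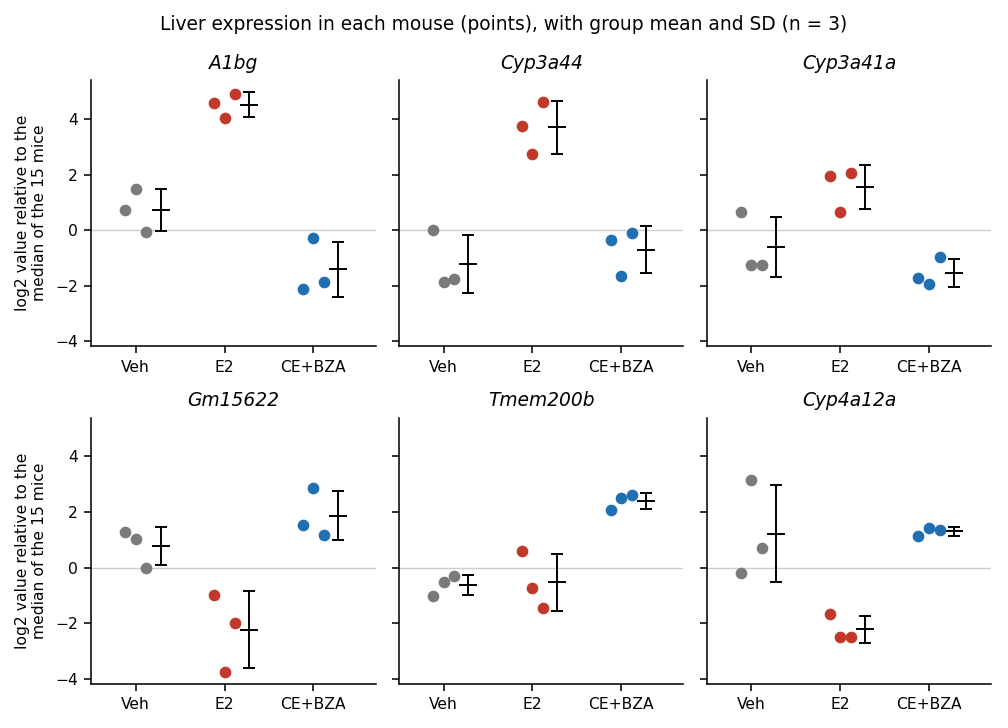
Points are the log2 values of single mice relative to the median of the 15 mice, in Veh (gray), E2 (red) and CE+BZA (blue), and bars are the mean and SD of 3 mice. The E2 mice stand above the CE+BZA mice in A1bg, Cyp3a44 and Cyp3a41a and below them in Gm15622, Tmem200b and Cyp4a12a.

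The genes nearest to the threshold did not pass. Tmem200b, a transmembrane protein gene at chr4:131921771-131923140, was at 2.07, 2.51 and 2.60 in the CE+BZA mice, against 0.58, −0.72 and −1.44 in E2 and −1.03, −0.51 and −0.32 in Veh. Here the E2 and Veh mice overlapped and the CE+BZA mice lay above both, with a difference of 2.92 from E2 (SE 0.59, FDR 0.0521 by limma). The mean was 2.08 in mice given BZA alone and −0.21 in mice given CE alone, against 2.39 in CE+BZA. Tmem200b passed under 5 of the 15 other settings tried. All 3 CE+BZA mice were at the floor of −1.17 in Pla2g4f, a cytosolic phospholipase A2 gene, against 1.15, 1.26 and 1.91 in E2 and 1.41, 2.93 and 2.81 in Veh. The E2 and Veh mice overlapped above the floor, and the difference of −2.60 (FDR 0.0562 by limma) is thus too small in size. Cyp4a12a, a male-predominant fatty acid hydroxylase gene, was at 1.13, 1.43 and 1.36 in CE+BZA, at −1.68, −2.50 and −2.50 in E2 and at −0.19, 3.17 and 0.69 in Veh. A pair of E2 mice were at its floor, and its difference was 3.53 (SE 0.77, FDR 0.0647 by limma). It shares 35.6% of its 101-base words with Cyp4a12b, which was 2.09 higher (unadjusted p = 0.00980 by limma) with all 3 E2 mice at the floor.

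Female-predominant liver genes were lower in CE+BZA than in E2 as a group. Of 60 such genes listed, 30 were in the table. At a fold change above 2 and an unadjusted p under 0.05, 14 of them (46.7%) were lower and 1 was higher, against 5.46 and 7.7% of all genes. Their median difference was −1.20, against 0.17 for all genes, and 26 of the 30 had a negative difference. In 19 of the 30 all CE+BZA mice lay below all E2 mice, and in 0 they lay above. Averaged over the 30 genes, the log2 level was 0.34 to 0.73 in the E2 mice, −0.97 to −0.79 in the CE+BZA mice and 0.16 to 0.68 in the Veh mice, so that the CE+BZA mice lay below the others. The 3 genes that passed are all on this list, which was drawn up with earlier results for them known. The count stayed between 11 and 14 without any of the 6 mice, and was 16 after quantile normalization.

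Several of the list's steroid and drug enzymes had lower levels in CE+BZA without passing. Cyp2c69, a P450 of the 2C subfamily, was at 1.66, 1.46 and 1.57 in E2 and at 0.12, −1.85 and −0.41 in CE+BZA, a difference of −2.28 (unadjusted p = 0.000880 by limma). It shares 35.1% of its 101-base words with other genes, mostly Cyp2c40. Cyp2a4, which hydroxylates testosterone, was at 1.29, 0.69 and 1.14 in E2 and at −0.51, −2.05 and −0.86 in CE+BZA, a difference of −2.18. Sult1e1, the sulfotransferase that inactivates estrogens, was at 0.34, −0.23 and 0.00 in E2 and at −2.09, −0.96 and −2.56 in CE+BZA, a difference of −1.91. In each of the 3 genes the E2 and CE+BZA mice did not overlap. Cyp17a1, a steroid hydroxylase and lyase gene, and Akr1b7, an aldo-keto reductase gene, differed by −1.82 and −1.73.

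Prom1, which encodes a membrane glycoprotein also found in bile duct cells, was at 0.47, −0.45 and 1.58 in E2 and at −2.03, −1.22 and −2.97 in CE+BZA, a difference of −2.61 (unadjusted p = 0.000904 by limma). The Veh mice, at 1.11, 0.81 and 0.00, lay with the E2 mice. Hao2, a peroxisomal hydroxy acid oxidase gene, was at 0.35, 0.00 and 1.59 in E2, at −2.02, −3.18 and −4.48 in CE+BZA and at 2.36, 1.73 and 1.44 in Veh. Its difference of −3.87 had a standard error of 1.18 (FDR 0.176 by limma). Cyp2b13 went against the list. It was at −1.70, −0.07 and −2.89 in E2 and at 0.09, −0.16 and 0.00 in CE+BZA, overlapping ranges with a difference of 1.53 (unadjusted p = 0.0250 by limma).

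Male-predominant liver genes showed the opposite sign less uniformly. Of 86 listed, 34 were in the table, and 9 (26.5%) were higher and 3 (8.82%) lower in CE+BZA at these thresholds, against 7.7 and 5.46% of all genes. Their median difference was 0.59, and 24 of the 34 had a positive difference. In 12 the CE+BZA mice lay above all E2 mice and in 5 below, against 11.6 and 8.49% of all genes. The count of higher genes was 5 without E2 mouse 5 and 7 or 8 without any other single mouse. Beside Cyp4a12a, the terminal complement genes C8a and C8b differed by 2.78 and 2.20 (unadjusted p = 0.00213 and 0.00763 by limma). C8a was at −1.16, 0.00 and −2.04 in E2 and at 1.37, 2.17 and 1.60 in CE+BZA. Cml5, an acetyltransferase-like gene, differed by 2.68, Acsm2, a medium-chain acyl-CoA synthetase gene, by 1.82, Adam11, a gene of the ADAM family, by 1.50, and Nox4, an NADPH oxidase gene, by 1.20. In each of these genes the groups did not overlap. Genes of the major urinary proteins, which are abundant in male liver, had positive differences that did not pass, with Mup20 at 1.34 and Mup1 at 0.95.

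A few genes on the male-predominant list were lower in CE+BZA. All the mice were female, so the sex bias of a listed gene was not measured here. Serpina12, which encodes the secreted serpin vaspin, was at 2.07, 3.00 and 1.51 in E2, at −0.27, 0.00 and −0.13 in CE+BZA and at −0.21, −0.99 and 0.44 in Veh. The E2 mice stood above both other groups, and the difference was −2.33 (SE 0.50, FDR 0.0636 by limma). Ugt2b37, a glucuronosyltransferase gene, was at 1.40, 0.61 and 2.99 in E2 and at −0.18, −0.88 and −0.53 in CE+BZA, a difference of −2.20. Hamp2, a paralog of the iron hormone hepcidin, was at 0.09, 1.42 and 0.87 in E2 and at −0.67, −2.31 and −2.30 in CE+BZA, a difference of −2.55. Neither passed (FDR 0.123 and 0.187 by limma).

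**Figure D3:**
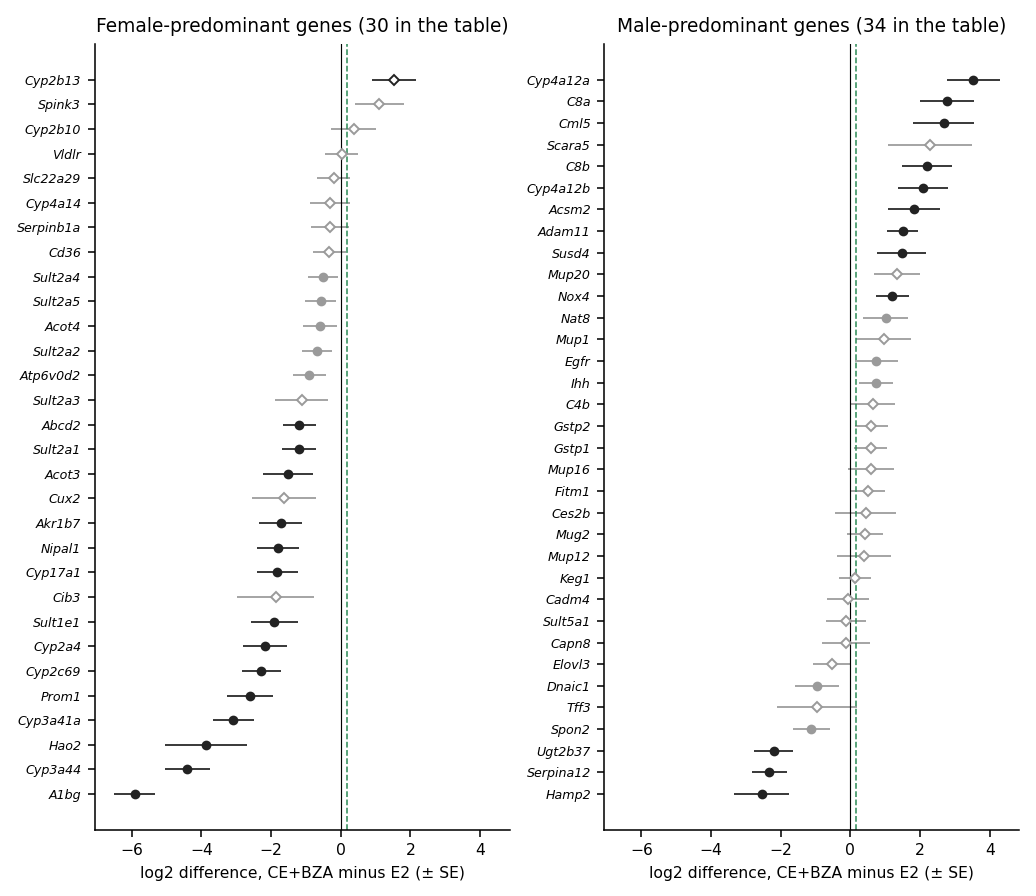
Log2 differences between CE+BZA and E2 with their standard errors for each female-predominant (left) and male-predominant (right) gene in the table. Black marks have an unadjusted p under 0.05 and a fold change above 2, filled circles are genes whose CE+BZA and E2 mice do not overlap, open diamonds are genes whose mice overlap, and the green dashed line is the median of all genes, 0.17.

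Drug and steroid metabolizing enzymes were counted as families of their own, and many of them are also on the lists above. The table held 18 P450 genes of families 1 to 3, of which 7 (38.9%) were lower and 1 (5.56%) higher at an unadjusted p under 0.05, against 5.46 and 7.7% of all genes, with a median of −0.34. The female-predominant list holds 6 of the 18, among them 4 of the 7 lower genes (Cyp3a44, Cyp3a41a, Cyp2c69 and Cyp2a4) and the higher one, Cyp2b13. Cyp2g1 was at 1.24, 1.88 and 0.91 in E2 and at −1.12, −0.49 and 0.54 in CE+BZA, a difference of −1.70. Cyp3a11, the main drug-inducible member of the 3A subfamily, differed by 0.62 with overlapping mice. Of 19 conjugation enzymes, 6 (31.6%) were lower and 1 (5.26%) higher, against 5.46 and 7.7% of all genes, with a median of −0.63. The female-predominant list holds 6 of the 19, with Sult1e1 and Sult2a1 among the lower genes, and the male-predominant list holds 4, with Ugt2b37 among them. Sult2a1, a bile acid and steroid sulfotransferase gene, differed by −1.20. Ugt1a5 differed by −1.74, but 63.1% of its 101-base words occur in Ugt1a2 because these genes share exons. Ugt1a2, at −1.68, is also among the 6 lower genes, so Ugt1a5 and Ugt1a2 are not separate counts. Gsto2, a glutathione transferase gene, was at 1.09, 1.99 and 1.64 in E2, while all 3 CE+BZA mice were at the floor of −0.11. Gsta1, another glutathione transferase gene, was the conjugation gene that was higher, at −1.05, −1.06 and −1.29 in E2 and 0.07, −0.27 and 0.24 in CE+BZA.

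Fatty acid oxidation genes linked to PPAR-alpha, the nuclear receptor for fatty acids in liver, had mostly negative differences of small size. Of 17 in the table, 16 had a negative difference, against 1060 of all 2545 genes, with a median of −0.67. At an unadjusted p under 0.05 with a fold change above 2, 3 (17.6%) were lower and 0 higher, against 5.46 and 7.7% of all genes. In 9 the CE+BZA mice lay below all E2 mice, which 8.49% of all genes did. Among these were the related genes Acot3, Acot4, Acot5 and Acot6, and also Cyp4a10, Cyp4a31 and Cyp4a32. Acot3 shares 15.85% of its 101-base words with other genes, and the words of the others were not counted. The 9 genes, and the 16 signs, may therefore not be separate observations. Besides Hao2, the acyl-CoA thioesterase gene Acot3 was at 0.27, 0.53 and 0.00 in E2 and −1.59, −1.49 and −0.67 in CE+BZA, and the peroxisomal fatty acid transporter gene Abcd2 differed by −1.19. All of these 3 are also on the female-predominant list. The exception in sign was Cpt1c, at 1.002 with an unadjusted p of 0.284 by limma.

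Genes of lipid droplets, triglyceride and fatty acid synthesis had no common direction. Among the 18 in the table the median difference was 0.01 (−0.18 after quantile normalization), with 1 gene (5.56%) higher and 2 (11.1%) lower at an unadjusted p under 0.05, against 7.7 and 5.46% of all genes. Plin4, which encodes a lipid droplet coat protein, was at −0.99, −1.92 and −2.18 in E2, at 0.00, 1.30 and 0.46 in CE+BZA and at 0.54, 0.83 and 0.81 in Veh. The E2 mice lay below both other groups, and the difference was 2.28 (SE 0.59, FDR 0.134 by limma). The fatty acid binding protein gene Fabp5 was at 0.82, 3.32 and 2.26 in E2 and at −0.21, 0.30 and −0.73 in CE+BZA, a difference of −2.35. Fasn, the fatty acid synthase gene, and Pparg, which the study followed by qPCR, differed by −0.13 and 0.27, each with overlapping mice. Pparg was at −0.55, −0.22 and −0.58 in E2, at −0.70, 0.16 and 0.00 in CE+BZA and at 1.18, 0.77 and 0.61 in Veh, so that both treated groups lay below Veh. Cfd, the complement protease also known as adipsin, was at −1.97, −1.48 and −0.83 in E2 and at −0.37, 0.00 and 0.11 in CE+BZA, against 3.15, 4.89 and 4.55 in Veh. Its CE+BZA and E2 mice did not overlap, but the difference of 1.34 had a standard error of 1.08 (unadjusted p = 0.231 by limma).

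The table held 8 genes of bile acid and cholesterol metabolism, of which 6 had a negative difference. Their median was −0.70, and 1 gene (12.5%) was lower and 0 higher at an unadjusted p under 0.05, against 5.46 and 7.7% of all genes. That gene was Fdps, the farnesyl diphosphate synthase gene, at 0.38, 2.29 and 1.72 in E2 and at 0.54, 0.28 and −0.53 in CE+BZA. Its mice overlapped and its difference was −1.37. The mevalonate pathway genes Mvd and Pmvk differed by −1.22 and −1.02 (unadjusted p = 0.0508 and 0.0790 by limma). Cyp46a1, a cholesterol hydroxylase gene, and Cyp7a1, the rate-limiting enzyme of bile acid synthesis, differed by 0.81 and 0.11.

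Genes known as direct or classical estrogen targets had no common direction. Of 14 in the table, 2 were lower and 2 higher at an unadjusted p under 0.05 (14.3% each, against 5.46 and 7.7% of all genes), with a median of 0.09 (−0.03 after quantile normalization). The higher ones were Socs3, a feedback inhibitor of cytokine signaling, at 1.35 and Fos at 1.68. Socs2, an inhibitor of growth hormone signaling, was at 0.51, 1.46 and 0.86 in E2, at −1.67, −1.09 and −0.99 in CE+BZA and at 0.00, −1.004 and −0.86 in Veh. The E2 mice lay above both other groups, and the difference was −2.19 (SE 0.58, FDR 0.143 by limma). Enho, which encodes the secreted peptide adropin, was at 0.58, 0.85 and 0.00 in E2, at −0.84, −0.81 and −0.72 in CE+BZA and at −1.56, −2.18 and −3.09 in Veh. The order was E2, CE+BZA and Veh with no overlap, and the difference between the first 2 was −1.27 (unadjusted p = 0.0424 by limma). Greb1, a direct target of the estrogen receptor in breast cells, was at one value in 11 of the 15 mice and differed by −0.06. Fst, which encodes follistatin, an activin inhibitor secreted by the liver, was at 0.60, 1.58 and 1.23 in CE+BZA, against −0.61, −0.48 and −2.33 in E2 and −0.97, −1.80 and −0.81 in Veh. Its difference was 2.28 (FDR 0.123 by limma), with the CE+BZA mice above all E2 and Veh mice. Its means were 0.65 in mice given BZA alone and 0.20 in mice given CE alone, against 1.14 in CE+BZA.

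Immediate early genes, which respond within minutes to many stimuli, had mostly positive differences. Of the 15 members measured, 14 had a positive difference, against 1430 of all 2545 genes, with a median of 0.84, against 0.17. At an unadjusted p under 0.05, 5 (33.3%) were higher and 0 lower, against 7.7 and 5.46% of all genes. Averaged over the 15, the log2 level was −0.37 to −0.22 in E2, 0.19 to 1.13 in CE+BZA and −0.90 to 0.24 in Veh. Dusp1, a phosphatase gene of the MAP kinase pathway, was at 0.00, 0.70 and −1.01 in E2 and at 1.45, 1.89 and 2.02 in CE+BZA, a difference of 1.89 (SE 0.75, unadjusted p = 0.0221 by limma). The others were Fos at 1.68, Gadd45g at 1.55, Csrnp1 at 1.29 and Zfp36 at 1.002, and Fos and Zfp36 had overlapping mice. The count fell to 1 without CE+BZA mouse 3, to 2 without E2 mouse 4 and to 3 without CE+BZA mouse 2, E2 mouse 3 or E2 mouse 5. Clock genes had a median of 0.83 over 11 genes, against 0.17, with 9 positive and 2 negative differences. Per1 and Usp2 (18.2%) were higher at 1.38 and 1.21, and 0 were lower, against 7.7 and 5.46% of all genes. The Per1 mice overlapped. Averaged over the 11 genes, the log2 level was −0.42 to 0.28 in E2 and 0.07 to 0.60 in CE+BZA, which also overlap. The hours at which the livers were taken are not given in the sources used here.

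Of the 5 hepatocyte markers in the table, the gluconeogenesis genes Pck1 and G6pc and the amino acid breakdown gene Tat had the smallest p. Pck1, the phosphoenolpyruvate carboxykinase gene, was at 0.00, −0.97 and −0.47 in E2, at 0.27, 1.37 and 1.32 in CE+BZA and at −1.73, −0.91 and −0.36 in Veh. G6pc, the glucose-6-phosphatase gene, was at −0.35, 0.11 and −0.72 in E2 and at 1.02, 1.04 and 0.47 in CE+BZA. Tat, the tyrosine aminotransferase gene, was at 0.48, −0.05 and −0.06 in E2 and at 0.84, 1.58 and 0.95 in CE+BZA. The CE+BZA and E2 mice of these 3 genes did not overlap. Their differences were 1.46, 1.16 and 0.997 (unadjusted p = 0.0171, 0.0466 and 0.0440 by limma), none of which passed. The other two, the urea cycle gene Ass1 and the transferrin gene Trf, differed by 0.50 and −0.21 (unadjusted p = 0.374 and 0.664 by limma).

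**Figure D4:**
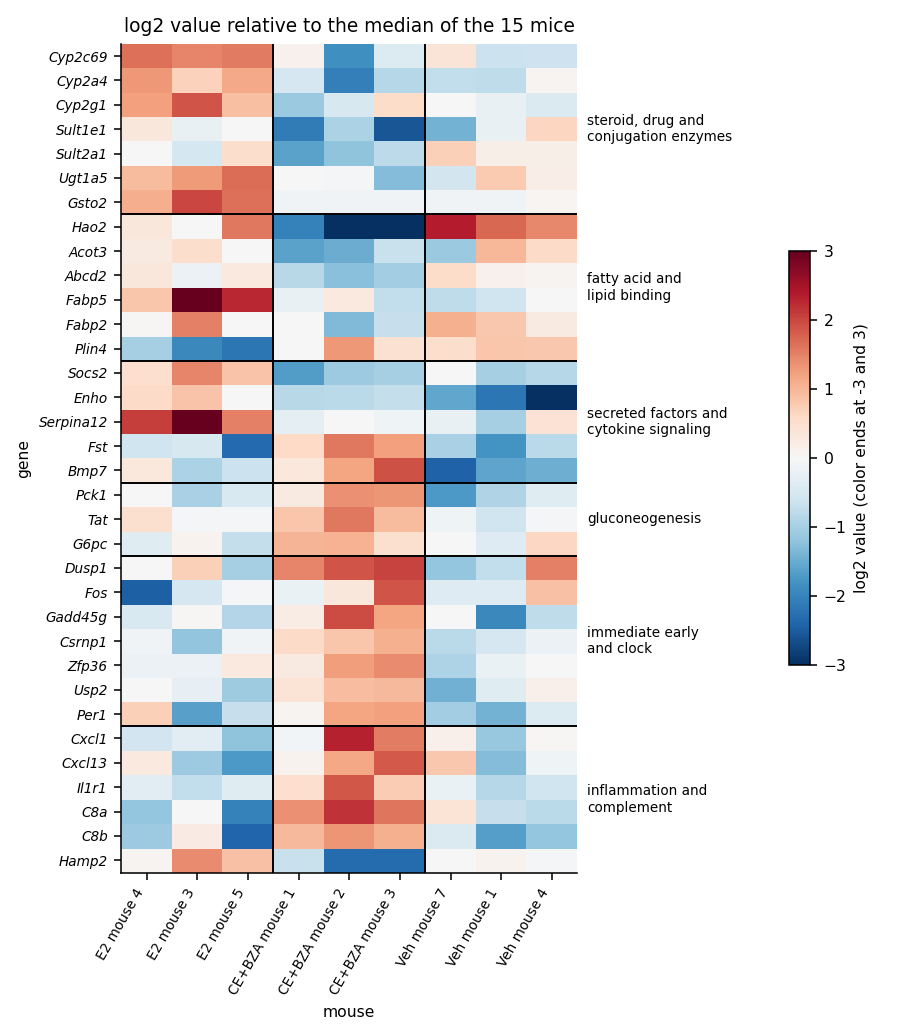
Log2 values relative to the median of the 15 mice for 34 named genes in each E2, CE+BZA and Veh mouse, with red above and blue below that median and colors ending at −3 and 3. The upper rows are mostly red in E2 and blue in CE+BZA, and the rows from Fst to C8b are mostly red in CE+BZA.

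Acute phase and inflammatory genes were uneven among the CE+BZA mice. Of 31 in the table, 5 (16.1%) were higher and 2 (6.45%) lower at an unadjusted p under 0.05, against 7.7 and 5.46% of all genes, with a median of 0.48. Averaged over the 31, the log2 level lay between −0.60 and 0.98 in the CE+BZA mice, a wider range than the −0.32 to 0.02 of the E2 mice. Saa1, the serum amyloid A gene, was at −0.78 in CE+BZA mouse 1 and at 5.30 and 2.35 in the other two, against −0.23, 0.99 and −0.94 in E2. Lcn2, the lipocalin gene, was at −1.10, 4.39 and 2.44 in CE+BZA, and Orm2, the orosomucoid gene, at −0.34, 2.93 and 2.37. CE+BZA mice 2 and 3 were thus the high ones, and none of the 3 genes had an unadjusted p under 0.05. Among those that did, the chemokine gene Cxcl1 was at −0.58, −0.32 and −1.20 in E2 and at −0.08, 2.31 and 1.54 in CE+BZA, a difference of 1.96, and the interleukin 1 receptor gene Il1r1 differed by 1.53. Cxcl13, a B cell chemokine gene, differed by 1.87 and Ccl22, a chemokine gene of macrophages and dendritic cells, by −1.48, both with overlapping mice. Of 10 complement and coagulation genes, 2 were higher, C8a and C8b, and 0 lower, against 7.7 and 5.46% of all genes, with a median of 0.59. The male-predominant list holds 3 of the 10, C8a and C8b among them, so these 2 genes were already counted there. Of 4 interferon-responsive genes in the table, 0 had an unadjusted p under 0.05 by limma, the smallest being that of Slfn4 (0.228).

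Extracellular matrix genes had a median of 0.42 over 27 genes, with 4 (14.8%) higher and 0 lower at an unadjusted p under 0.05, against 7.7 and 5.46% of all genes. Col5a3, a fibrillar collagen gene, was at −0.59, −1.82 and −0.73 in E2, at 0.13, 0.49 and 1.21 in CE+BZA and at 0.80, 0.38 and 0.32 in Veh, a difference of 1.66. Col27a1, Col7a1 and the growth factor gene Bmp7 differed by 2.32, 1.66 and 1.56. Among 24 cell cycle genes 3 (12.5%) were lower, against 5.46% of all genes, and 0 higher, with a median of −0.28. They were the shugoshin gene Sgol1 at −1.61, the kinesin gene Kif18b at −1.54 with all 3 CE+BZA mice at the floor, and the cell cycle inhibitor gene Cdkn2a at −1.26 with 9 of the 15 mice at the lowest value.

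**Figure D5:**
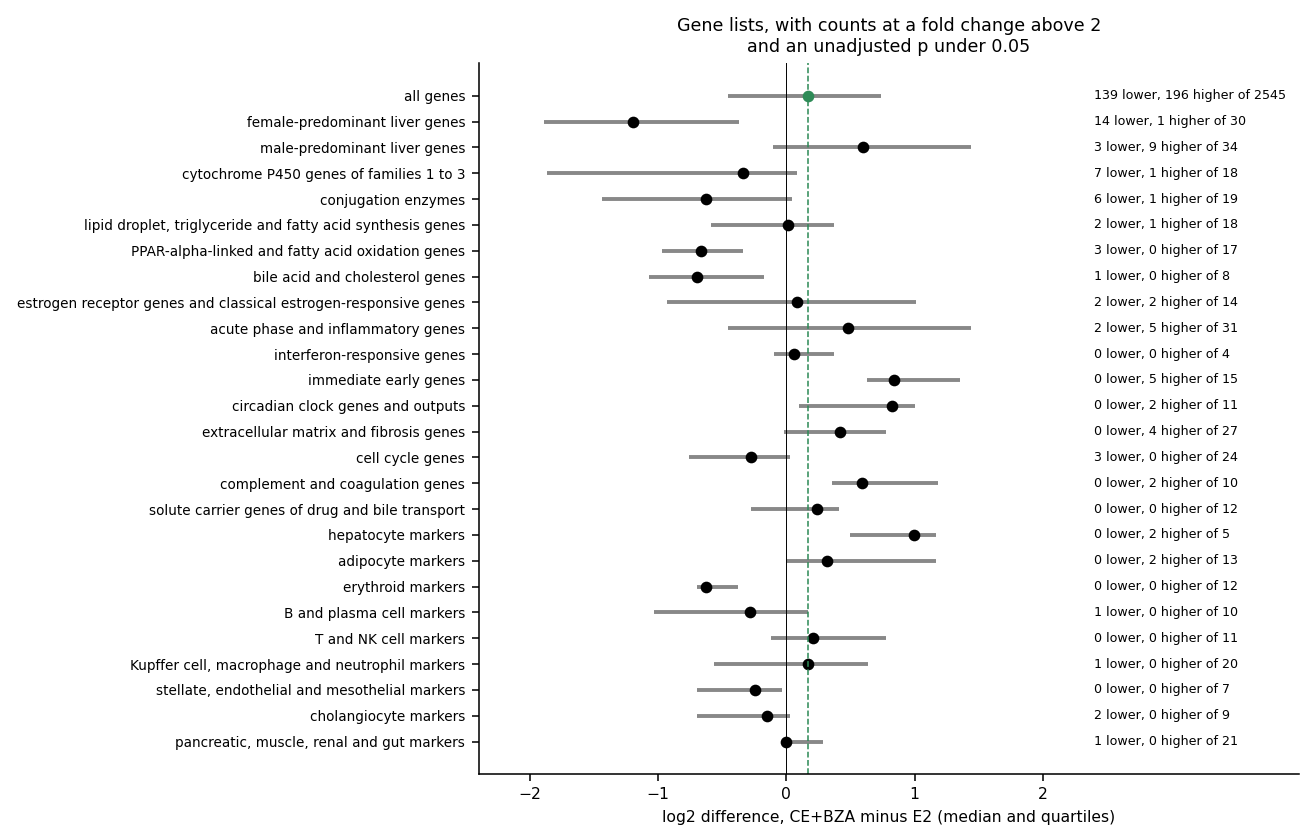
Black points are the median log2 differences between CE+BZA and E2 over the genes of each list in the table and gray bars run between the quartiles, with the median of all genes in green. The female-predominant list has the lowest median, −1.20, and the hepatocyte list of 5 genes the highest, 0.997.

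Markers of other cell types were examined beside these results. The table holds only genes that a treatment moved, so it has 5 of 23 hepatocyte markers, and albumin and other defining ones could not be used to check the tissue. Of the 5, Pck1 and G6pc were higher at an unadjusted p under 0.05 with a fold change above 2. Over 13 adipocyte markers, the averaged level ran from −0.66 to −0.22 in the E2 mice, from 0.00 to 0.45 in the CE+BZA mice and from 0.06 to 0.45 in the Veh mice, and 7 of the 13 had 2 or more mice at the floor. The defining adipocyte genes Adipoq and Retn were at their lowest value in 11 and 9 of the 15 mice, all 3 CE+BZA mice among them, so their difference of −0.03 each says little of the adipocyte share. Cfd, Pck1 and Plin4 differed by 1.34, 1.46 and 2.28, and their part in the averaged level was not tested. Erythroid markers averaged −0.53 to 0.38 in E2 and −1.05 to −0.34 in CE+BZA, with 0 of 12 at an unadjusted p under 0.05, and the hemoglobin gene Hbb-b2 differed by −0.76 (unadjusted p = 0.173 by limma). Markers of cholangiocytes averaged −0.18 to 0.51 in E2 and −0.73 to −0.32 in CE+BZA. Of these 9 genes 2 (22.2%) were lower, against 5.46% of all genes, and 0 higher. They were Prom1 and the tetraspanin gene Tspan8 (−2.61 and −1.84). The keratin genes Krt7 and Krt19, which define the bile duct, differed by 0.10 and 0.02. Prom1 and Tspan8 are themselves among the 9 genes averaged, so the lower cholangiocyte level is not separate from their values. Whether the share of bile duct cells differed was not tested.

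Other cell types gave fewer differences. Of 10 B and plasma cell markers, Igj, the joining chain gene of antibodies, was at −1.33, just under an unadjusted p of 0.05 by limma, and the B cell gene Ms4a1 differed by −0.30. Of 20 Kupffer cell, macrophage and neutrophil markers, 1 (5.0%) was lower and 0 higher, shares no larger than those of all genes. It was Gpnmb, a glycoprotein gene of lipid-laden macrophages, at −0.12, −0.63 and 0.24 in E2 and −2.33, −1.15 and −1.36 in CE+BZA. T and NK cell markers (11 genes), stellate, endothelial and mesothelial markers (7 genes) and drug and bile solute carriers (12 genes) each had 0 genes at an unadjusted p under 0.05 by limma with a fold change above 2. Their smallest p belonged to Xcl1, Upk3b and Slc13a2, which differed by −1.10, −1.13 and 1.02. Of 21 pancreatic, muscle, renal and gut markers, 11 had all 3 Veh mice, 13 all 3 E2 mice and 12 all 3 CE+BZA mice at the floor. Lower in CE+BZA there was 1 gene (4.76%), Fabp2, also a liver gene, at −1.19, and 0 were higher, against 5.46 and 7.7% of all genes.

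The remaining genes with the smallest p and no overlap between the groups often had mice at the floor, and in 6 of the 8 that follow 2 or more mice were there. Cdx4, an intestinal homeobox gene, had all 3 CE+BZA mice at the floor and differed by −2.80, and the transcription factor gene Snai3 differed by −3.21 and the potassium channel gene Kcnq5 by −2.20. On the higher side, Fam107a had all 3 E2 mice at the floor and differed by 2.76, and the zinc finger gene Ikzf4, Ccdc37, Tspyl5 and the glutamate receptor gene Grin2d differed by 2.57, 2.28, 2.10 and 2.02. None of these 8 passed (FDR 0.0749 to 0.166 by limma).

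Placed against Veh, neither group alone accounted for the differences. Of the 196 genes counted as higher in CE+BZA, the Veh mean lay between the E2 and CE+BZA means in 126 (64.3%), below both in 45 and above both in 25. Of the 139 lower genes it lay between in 89 (64.0%), below both in 18 and above both in 32. Over all 2545 genes the Veh mean lay between in 661 (26.0%), and picking genes whose E2 and CE+BZA means are far apart raises this share by construction. Among the higher genes Veh was nearer to CE+BZA in 82 and to E2 in 114, and among the lower genes in 73 and 66. Against Veh itself, A1bg differed by 3.79 in E2 (FDR 0.00754 by limma) and by −2.13 in CE+BZA (FDR 0.119), Cyp3a44 by 4.90 (FDR 0.00231) and 0.51 (FDR 0.663), and Bmp7 by 1.40 (FDR 0.279) and 2.96 (FDR 0.0451). These contrasts use the same 3 Veh mice.

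The distance between a CE+BZA and an E2 mouse, taken as the root of the mean squared log2 difference over all genes, was 1.36 on average and ranged from 1.21 to 1.54 over the 9 pairs. Mice of a group lay 1.19 apart in E2 and 1.17 in CE+BZA, so most of the distance between the groups is found between mice of a group as well.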

How the data were processed

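Reads were trimmed by the authors (FASTQ Trimmer 1.0.0) and aligned with TopHat. The authors counted them per gene in StrandNGS 3.1, with partial reads and newly detected genes allowed, and used its DESeq normalization. The submitters' processing notes name mm10 and also hg19, a human build. The sources give both single-end reads and 101 cycles from each end, and both 2 and 3 samples per group; 3 mice per group were used here. The values the authors deposited are log2 levels relative to the gene's median, taken over 15 mice and equal to 0 for each of 2545 genes, with low values raised to a floor. No pseudocount or filter was applied. Columns were matched to mice by name, 0 were left without a sample, and 0 of 105 pairs of mice had identical values.

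The groups, 5 in all with 15 mice, entered one limma 3.58.1 fit (R 4.3.3) with the contrast of CE+BZA minus E2 and 16.7 degrees of freedom after moderation. Benjamini-Hochberg adjustment covered the whole table of 2545 genes. The test was tried on simulated data first. Figures and counts used pandas 2.3.3, numpy 2.4.6 and matplotlib 3.10.9 in Python 3.11.15. Positions came from GENCODE (GRCm38), which matched 2168 of the names, and promoters and transcripts from RefSeq and GENCODE, aligned with Biopython 1.88. Words of 101 bases are every stretch of that length in a gene's transcripts.

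The comparison, the 25 gene lists and the rules were chosen with earlier results of these data known. Named genes were those that passed, the 10 per direction with the smallest p, a fold change above 2 and no overlap, predicted genes left out, up to 5 per list with an unadjusted p under 0.05 or else the one with the smallest p, and the genes followed by qPCR. Greb1, Saa1, Lcn2, Orm2, Cyp3a11, Cyp7a1, Cyp46a1, Ass1, Trf, Fasn, Cpt1c, Mvd, Pmvk, Gsta1, Cyp2b13, Cyp17a1, Akr1b7, Cyp4a12b, Cml5, Acsm2, Nox4, the Mup and keratin genes, Adipoq, Retn and Ms4a1 were named after their values were seen. So were Acot4, Acot5, Acot6, Cyp4a10, Cyp4a31, Cyp4a32 and Ugt1a2. Some items are not reported here.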

Additional observations from a re-analysis of the deposited data

How the results depend on the processing

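No paired analysis was possible because the CE+BZA and E2 mice share only 1 replicate number in their labels. The 4 genes that passed became 10 (3 higher and 7 lower) with quantile normalization, 9 (4 and 5) without the 1045 genes with mice at the floor, 1 without variance shrinkage, 29 (14 and 15) with array weights and 0 with a fit to the 6 mice alone, where 341 genes had an unadjusted p under 0.05 by limma. With an unadjusted p under 0.05 they became 335. Leaving out 1 mouse gave 1 to 4 genes. The lower genes at an unadjusted p under 0.05 went from 139 to 212 with quantile normalization. Leaving out 1 mouse gave 407 to 520 genes without overlap on the higher side and 304 to 343 on the lower, as fewer mice overlap less, 5 to 8 higher male-predominant genes and 1 to 5 higher immediate early genes. The last 2 counts were added after the data were seen. Under these settings 0 of the 71 genes chosen by the naming rule turned direction (genes named after their values were seen were not tried), A1bg lost its call in 1 setting of 15, Cyp3a44 in 5, and Cyp3a41a and Gm15622 in 8 each. Where the fits to 6 or 9 mice met genes without variance, limma offset it. The cause of these shifts was not tested. The number of reads is unknown, so no floor of detection can be set.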
